A study of Mus musculus with 8 samples.

Results

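The CXCR3 chemokine axis comprises 4 genes, the ligand genes Cxcl9, Cxcl10 and Cxcl11 and the receptor gene Cxcr3. They were taken by name from the 750 immune-related genes of a NanoString nCounter panel, and all 4 had a probe. CXCL9, CXCL10 and CXCL11 are small secreted chemokines that are induced by interferons, most of all by IFN-γ, and all bind the receptor CXCR3. CXCR3 is carried by activated T cells and NK cells, which migrate toward its ligands into inflamed tissue and tumors. In C57BL/6 mice the Cxcl11 gene is a transcribed pseudogene, as the RefSeq gene table lists it, so its counts measure RNA and not a chemokine.

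The samples were whole peritoneal tumors of MC38, a murine colon carcinoma cell line, grown in male wild-type C57BL/6 mice aged 7 to 8 weeks after 500000 cells were implanted in the peritoneal cavity. From day 7, mice of the treated group received RR-CDA (MIW815, ADU-S100), a cyclic dinucleotide that activates STING, an adaptor protein of the endoplasmic reticulum that binds such dinucleotides, in 2 intraperitoneal injections of 15 µg, and mice of the control group received PBS in the same volume, with 4 tumors profiled from each group. Tumors were collected about 10 days after the first injection, and the comparison asks how the tumor microenvironment differed after STING activation. The age, dose, number of injections and day of collection come from the study's methods and results, not from the sample labels. The labels name the tissue as colon, while 2 of 5 listed epithelial genes were on the panel, Cdh1 and Epcam, with mean counts of 24.1 and 10.1.

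Summed over the 750 genes, counts came to 241724 to 403150 in the control tumors and 241506 to 414698 in the STING agonist-treated tumors. Counts were divided by a factor from the geometric mean of 20 housekeeping genes to give normalized counts. Controls 2 and 4 differed by less than counting error over 358 genes with a mean count of 20 to 300, where chi-square over its degrees of freedom was 0.404. It was 5.89 to 12.6 in the 11 remaining pairs from the same group. Whether they are 1 sample measured in duplicate is not stated. They were averaged and counted as 1 sample, which left n = 3 controls and n = 4 treated tumors. Among the treated tumors, STING agonist 4 stood apart in liver genes. The normalized counts of 9 hepatocyte genes on the panel summed to 1473 in this tumor, and to 38.6 to 88.6 in the other 7.

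Cxcl9 encodes the ligand that depends most strictly on IFN-γ. Its normalized counts (probe NM_008599.2) were 204, 77.1, 259 and 82.4 in controls 1 to 4, and 871, 875, 468 and 1239 in STING agonist tumors 1 to 4. Every treated tumor lay above every control, and STING agonist 3 was the lowest of the treated tumors. The mean was 181 ± 92.0 (SD, n = 3) for the controls and 863 ± 315 (SD, n = 4) with the agonist, a fold change of 4.78. The log2 fold change was 2.25 (SE 0.44), with an unadjusted p of 0.000699 and an adjusted p of 0.171 over the 750 genes (edgeR's quasi-likelihood test). No gene on the panel had a lower unadjusted p, and 12 genes had a larger log2 fold change. With STING agonist 3 left out, the adjusted p of Cxcl9 was 0.0475 (edgeR), and it ranged from 0.000181 to 0.384 over the 20 distinct alternatives.

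Cxcl10 encodes a ligand that both type I IFN and IFN-γ induce, and that many cell types can make. Its normalized counts (probe NM_021274.1) were 3183, 1964, 3743 and 2094 in controls 1 to 4, and 4940, 6436, 4169 and 6073 in the treated tumors. The groups did not overlap, and the lowest treated tumor, STING agonist 3, was close to the highest control. The mean was 2981 ± 881 (SD, n = 3) for the controls and 5405 ± 1041 (SD, n = 4) with the agonist, a fold change of 1.81. The log2 fold change was 0.86 (SE 0.24), with an unadjusted p of 0.00654 and an adjusted p of 0.175 (edgeR).

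Cxcl11 is the ligand gene that is no longer read into a full chemokine in this strain, and its normalized counts (probe NM_019494.1) were 51.8, 26.0, 52.6 and 29.3 in controls 1 to 4, and 102, 182, 65.4 and 139 in the treated tumors. The groups did not overlap, but the 95% Poisson intervals of control 3 (41.2 to 66.1) and STING agonist 3 (50.4 to 83.5), which cover counting error only, did. The mean was 44.1 ± 14.0 (SD, n = 3) for the controls and 122 ± 50.1 (SD, n = 4) with the agonist, a fold change of 2.77. The log2 fold change was 1.46 (SE 0.39), with an unadjusted p of 0.00488 and an adjusted p of 0.171 (edgeR).

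**Figure D1:**
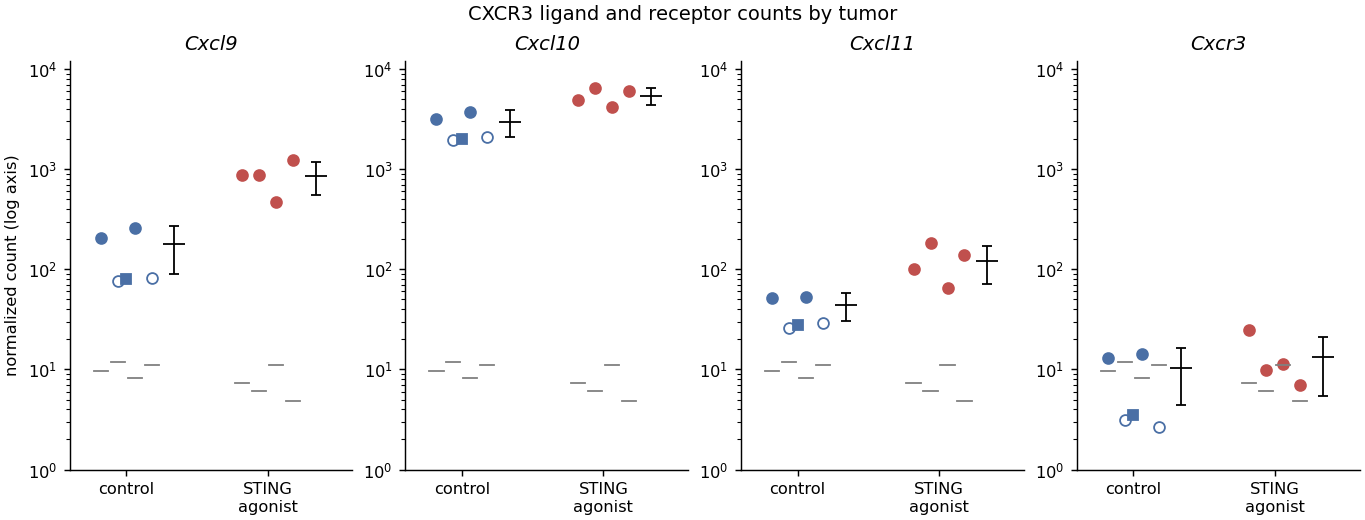
Normalized counts of the 4 genes on a log axis in each control tumor (blue) and STING agonist-treated tumor (red), left to right 1 to 4 in each group; open circles are controls 2 and 4, the square is their average, bars are group mean ± SD (n = 3 and n = 4), and gray dashes are each tumor's background from the negative control probes. Every treated tumor lies above every control in Cxcl9, Cxcl10 and Cxcl11, and in Cxcr3 the groups overlap near background.

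Cxcr3 encodes the receptor, and its counts were close to background, which was set for each tumor 2 SD above the mean of its 8 negative control probes. The raw counts (probe NM_009910.2) were 14, 3, 20 and 2 in controls 1 to 4, and 21, 8, 11 and 8 in the treated tumors. In 6 of 8 tumors the count was above background, and the exceptions were controls 2 and 4, where background was 11.3 and 8.27 counts. The normalized counts were 13.0, 3.12, 14.4 and 2.66 in the controls and 24.5, 9.78, 11.2 and 7.06 in the treated tumors. In 1 of 4 treated tumors, STING agonist 1, Cxcr3 was above every control, and the other 3 lay within the range of the controls. The mean was 10.3 ± 5.92 (SD, n = 3) for the controls and 13.2 ± 7.78 (SD, n = 4) with the agonist. The log2 fold change was 0.30 (SE 0.56), with an adjusted p of 0.852 (edgeR), and the direction depended on single samples, at -0.075 without controls 2 and 4 and at -0.18 without STING agonist 1. The counts were small, and the 95% Poisson interval of the raw count in STING agonist 2, for example, ran from 3.45 to 15.8.

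No gene on the panel, the 4 members included, had an adjusted p under 0.05 with edgeR, which is 0.0% of the genes tested. The Wald test of DESeq2 called 52 genes at that threshold, among them Cxcl9, Cxcl10 and Cxcl11 (adjusted p = 0.000181, 0.0321 and 0.0142). Over the 20 distinct alternatives their adjusted p ran up to 0.384, and limma and the methods' per-gene test, an unpaired two-tailed test on normalized counts, called 0 genes after the adjustment added here. The study drew its line at an unadjusted p under 0.05. There the methods' per-gene test gave 87 genes higher and 10 lower with controls 2 and 4 averaged, and 169 and 16 with all 8 tumors, chosen after seeing the data. Its unadjusted p for Cxcl11 was 0.0504 with the average, the only alternative that took a ligand gene above 0.05, and 0.0197 with all 8 tumors. All 3 ligand genes had an unadjusted p under 0.05 in edgeR with higher values after treatment, as had 133 of 750 genes (17.7%), and no member had a lower value, against 10 genes (1.33%). The groups did not overlap, with higher values after treatment, in 3 of 4 members and in 126 of the 750 genes (16.8%). The count of 133 genes was 77 without STING agonist 1 and 79 without STING agonist 4, and the 3 ligand genes had an unadjusted p under 0.05 in both cases. Without STING agonist 4, the tumor with liver genes, the log2 fold changes of Cxcl9, Cxcl10, Cxcl11 and Cxcr3 were 2.02, 0.80, 1.38 and 0.50.

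With housekeeping scaling the 750 genes had a median log2 fold change of 0.21, and TMM normalization (trimmed mean of M-values) moved it to -0.021. Of the genes with an unadjusted p under 0.05, 93.0% were higher with the housekeeping genes (133 against 10). The share was 68.5% with TMM (87 against 40), 64.3% with the size factors of DESeq2 (81 against 45) and 68.7% with the total count (68 against 31). All 3 ligand genes were among those higher in each case. With TMM the log2 fold changes of Cxcl9, Cxcl10, Cxcl11 and Cxcr3 were 2.05, 0.65, 1.26 and 0.079. Scaling moves all genes about alike, so values relative to the median of all genes change little between scalings by construction. Relative to this median, the log2 fold change of Cxcl9 was 2.03 with the housekeeping genes and 2.07 with TMM. That of Cxcl10 was 0.64 and 0.67 and that of Cxcl11 1.24 and 1.28, while Cxcr3 was near the median, at 0.083 and 0.10.

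For each member by itself, the mean of log2(normalized count + 1) was compared between groups in a two-sided exact permutation test over 35 arrangements of the samples. The difference was 2.33 for Cxcl9 and 0.88 for Cxcl10 (exact permutation tests, p = 0.0286 each, the smallest possible). For Cxcl11 the difference was 1.41, and p was 0.0571 in the exact permutation test, although the groups did not overlap. For Cxcr3 the difference was 0.38 (exact permutation test, p = 0.60). When controls 2 and 4 were kept apart, exact permutation tests over 70 arrangements gave p = 0.0286 for each ligand gene and 0.314 for Cxcr3.

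The spread between tumors differed from member to member. The coefficient of variation (SD over mean) of Cxcl9 was 50.9% in the controls and 36.5% in the treated tumors. For Cxcl10 it was 29.5% and 19.3%, and for Cxcl11 31.7% and 41.0%. Cxcr3 varied the most, at 57.6% and 59.2%. Control 3 was the highest control and STING agonist 3 the lowest treated tumor in each ligand gene, while the highest treated tumor was STING agonist 4 for Cxcl9 and STING agonist 2 for Cxcl10 and Cxcl11.

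In the RefSeq gene table the 3 ligand genes neighbor each other on chromosome 5. By the order of their starts no gene lay between Cxcl10 and Cxcl11, and 1 gene, Art3, lay between Cxcl9 and Cxcl10. Cxcr3 is on chromosome X. Promoter sequences were matched for 3 of 4 members, Cxcl9, Cxcl10 and Cxcr3. The 250 bases before the start of the ligand genes are shown since these genes followed each other over the samples and interferon-activated factors are known to bind such regions. They are given 5′ to 3′ on the minus strand (RefSeq, GRCm38.p6), at chr5:92328080-92328329 for Cxcl9 and chr5:92348890-92349139 for Cxcl10, with motif matches in capitals.
Cxcl9: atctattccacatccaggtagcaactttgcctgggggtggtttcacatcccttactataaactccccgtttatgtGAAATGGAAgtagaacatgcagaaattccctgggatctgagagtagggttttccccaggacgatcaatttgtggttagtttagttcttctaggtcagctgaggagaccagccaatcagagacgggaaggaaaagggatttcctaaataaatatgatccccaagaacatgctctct
Cxcl10: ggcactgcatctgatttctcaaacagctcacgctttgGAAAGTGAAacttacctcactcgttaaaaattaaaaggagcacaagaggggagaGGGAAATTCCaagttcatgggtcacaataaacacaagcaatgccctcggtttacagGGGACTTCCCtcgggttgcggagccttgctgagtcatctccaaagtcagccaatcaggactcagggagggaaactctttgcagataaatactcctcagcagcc

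In these bases and the 50 bases after the start, both strands were searched for the core of the interferon-stimulated response element (GAAANNGAA), the gamma-activated site (TTCNNNGAA) and the kappaB consensus. The Cxcl9 sequence held 1 match, to the interferon-stimulated response element core, from base -175 to base -167 before the start. The Cxcl10 sequence held 3 matches, to the same core from base -213 to base -205 and to the kappaB consensus from -159 to -150 and from -103 to -94. No matches overlapped, the gamma-activated site was matched in neither sequence, no match lay after a start, and the 300 bases of Cxcr3 held none of the 3 motifs. Of 32851 promoters of this length, 8.56% held GAAANNGAA, 8.30% held TTCNNNGAA and 4.51% the kappaB consensus. Among the 676 promoters of panel genes the shares were 13.3%, 12% and 10.1%. A match describes letters only, a site that departs from these letters is not found, and factor binding was not measured.

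**Figure D2:**
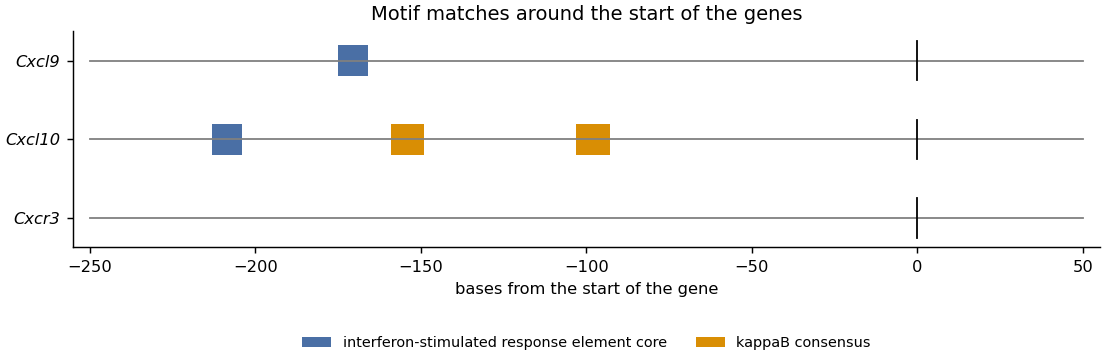
Motif matches from 250 bases before to 50 bases after the start of Cxcl9, Cxcl10 and Cxcr3, by distance in bases from the start (black tick); blue is the interferon-stimulated response element core and orange the kappaB consensus. Cxcl9 has 1 match, Cxcl10 has 3 and Cxcr3 has none.

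The fold changes of the 3 ligand genes were compared through their ratios. Probes of different genes are captured with different efficiency, so only the difference of a ratio between groups was compared, and not its level. The ratio of Cxcl9 to Cxcl10 was 0.0645, 0.0397, 0.0693 and 0.0398 in controls 1 to 4, and 0.177, 0.136, 0.112 and 0.204 in the treated tumors. All 4 treated tumors lay above every control. The ratio was 2.73-fold higher after treatment, a log2 difference of 1.45 from -4.15 ± 0.44 (SD, n = 3) to -2.71 ± 0.38 (SD, n = 4). In the exact permutation test p was 0.0286, the smallest possible, and 0.0857 after adjustment over 3 ratios, so the difference did not pass the threshold after adjustment.

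The ratio of Cxcl11 to Cxcl10 had a log2 difference of 0.52, and 3 of 4 treated tumors exceeded all controls. For Cxcl9 to Cxcl11 it was 0.93, again with 3 of 4 treated tumors beyond the controls. In both cases p was 0.0857 before and after adjustment (exact permutation tests). The sample that overlapped with the controls was STING agonist 3 in the first ratio and STING agonist 2, which had the highest Cxcl11 of all tumors, in the second.

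Whole tumors were measured, so more cells of a type and more RNA per cell cannot be told apart. Ptprc, which encodes the pan-leukocyte antigen CD45, had 87.0 ± 39.1 (SD, n = 3) normalized counts in controls and 208 ± 64.0 (SD, n = 4) in treated tumors. Its log2 fold change was 1.24 ± 0.38 (SE), at an adjusted p of 0.181 by edgeR. Set against Ptprc in the same tumor, Cxcl9 was 2.02-fold higher in the treated group, and all 4 treated tumors lay above every control. This ratio was 1.88, 1.79, 2.32 and 1.98 in controls 1 to 4, and 3.38, 5.24, 3.33 and 4.62 in the treated tumors (exact permutation test, p = 0.0286, adjusted 0.114 over 4 ratios). The ratio of Cxcl10 to Ptprc was 29.2, 45.0, 33.4 and 49.6 in the controls, and 19.2, 38.5, 29.6 and 22.6 in the treated tumors. Here the direction was the other way, a log2 difference of -0.43, with overlapping groups and 2 of 4 treated tumors below every control (exact permutation test, p = 0.229, adjusted 0.457). It was -0.24 without controls 2 and 4, and -0.18 with the mean of Ptprc, Itgam and Csf1r as denominator (exact permutation test, adjusted p = 0.714, and 0.286 to 0.80 over its 9 alternatives). For Cxcl11 the log2 difference was 0.088 (exact permutation test, p = 0.914, adjusted 0.914), and it was -0.22 without STING agonist 2 and 0.34 with the other denominator.

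Cxcr3 was set against the mean of Cd3d, Cd3e and Cd3g, which encode subunits of the T cell receptor complex. The ratio was 0.481, 0.212, 0.412 and 0.169 in controls 1 to 4, and 0.352, 0.266, 0.290 and 0.103 in the treated tumors. The groups overlapped, and the log2 difference was -0.61 (exact permutation test, p = 0.343, adjusted 0.457). Without STING agonist 4 the log2 difference was -0.23, without controls 2 and 4 it was -0.95, and against the mean of the 17 T cell genes it was -0.16. The lowest value, in STING agonist 4, rests on a Cxcr3 count of 8. Those of controls 2 and 4 rest on counts of 3 and 2, below background, and Cd3e was above background in 2 of 4 controls. The size of the difference is therefore uncertain.

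**Figure D3:**
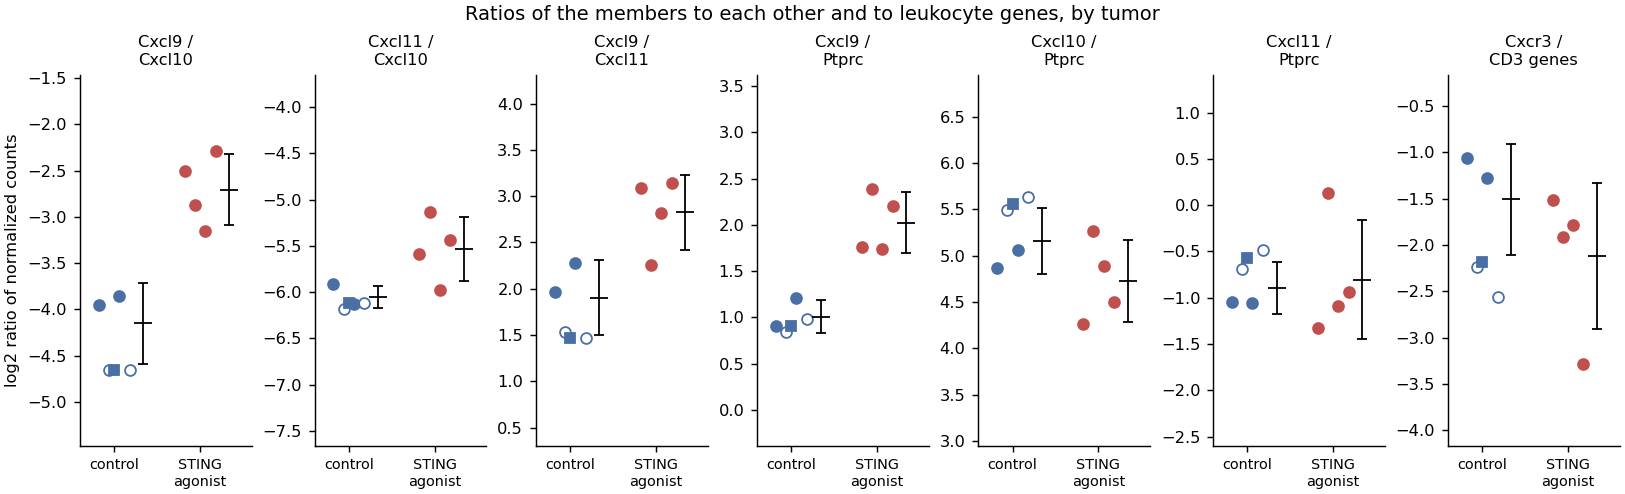
Log2 ratios of normalized counts (pseudocount 1) in each control tumor (blue) and treated tumor (red), with controls 2 and 4 as open circles, their average as a square, and bars for group mean ± SD (n = 3 and n = 4); every panel spans the same log2 range. The treated tumors lie above all controls in Cxcl9 to Cxcl10 and Cxcl9 to Ptprc, and the groups overlap in the other 5 ratios.

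Among all 35 chemokine ligand genes on the panel, recognized by name, 12 had an unadjusted p under 0.05 with higher values and 1 with lower values. None had an adjusted p under 0.05 (edgeR). Over all 750 genes the shares at the unadjusted threshold were 17.7% higher and 1.33% lower. The median log2 fold change of the ligand genes was 0.41, beside 0.21 for all genes. Of the ligands with a mean count of at least 20, Cxcl9 had the largest log2 fold change. It was followed by Xcl1, which attracts cross-presenting dendritic cells, at 1.59 (SE 0.54) with 2 of 4 controls above background, then by Cxcl11 at 1.46 and by Cxcl16, the ligand of CXCR6, at 1.33 (SE 0.44). These 3 neighbors in the order lay within 1 SE of each other. Cxcl11 was compared with Cxcl9 only through their ratio, and no test compared Xcl1 or Cxcl16 with Cxcl9. Cxcl13, a B cell chemoattractant, was in the other direction at -1.20 (SE 0.53), with an unadjusted p of 0.0506 (edgeR). Cxcl10 stood behind 9 other ligand genes.

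Among the 17 chemokine receptor genes, 3 had an unadjusted p under 0.05, all with higher values, a share close to the 17.7% of all genes, and the median log2 fold change was 0.34. Among them were Cxcr6 at 1.65 (SE 0.50), with 2 of 4 controls above background, and Ccr2, a receptor of inflammatory monocytes, at 1.48 (SE 0.40). Cxcr6 is, like Cxcr3, carried by activated T cells, and its mean count was 47.3, while that of Cxcr3 was 12.1, where counting error is larger. Of the 17 receptor genes, 10 had a mean count under 20, Cxcr3 among them.

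**Figure D4:**
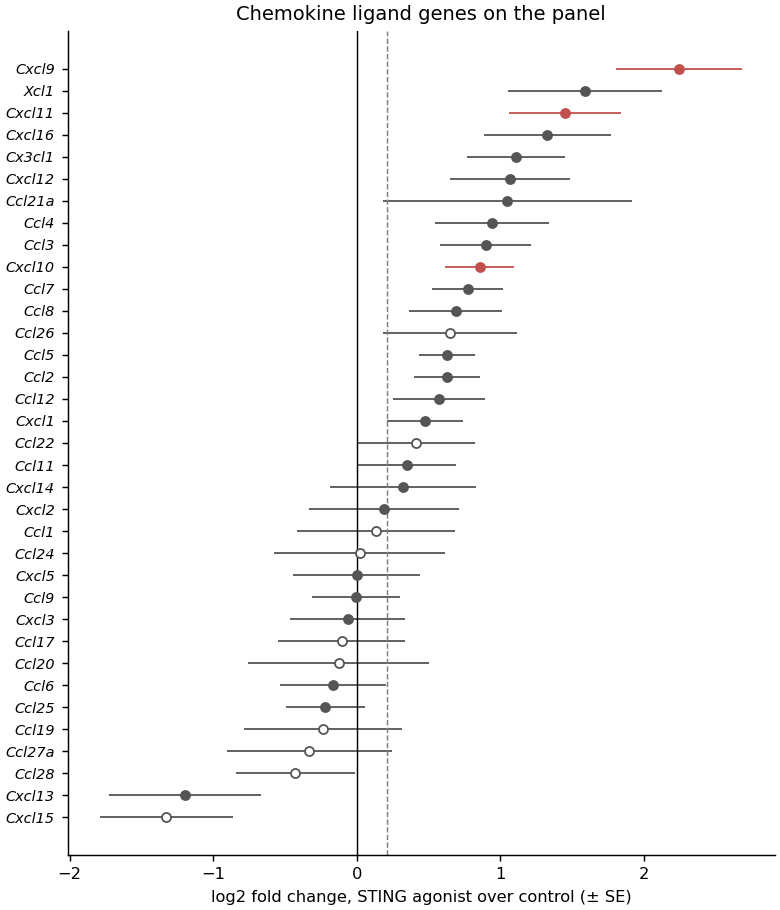
Log2 fold change ± SE (edgeR) of 35 chemokine ligand genes, STING agonist over control, with the members in red, open circles for genes with a mean count under 20, and a dashed line at the median of all 750 genes (0.21). Cxcl9 is at the top, and Cxcl11 and Cxcl10 lie to the right of the median of all genes.

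Of 8 listed genes that act on or beside the axis, 3 were on the panel. Dpp4, a surface peptidase that truncates the CXCR3 ligands, had a log2 fold change of 1.50 (SE 0.56) on a mean count of 14.7, with 1 of 4 controls above background, and 2.40 with background subtracted. The adhesion pair that arrests T cells on endothelium, Itgal (a chain of LFA-1) and its ligand Icam1, had 1.06 (SE 0.42) and 0.91 (SE 0.33). All 3 had an unadjusted p under 0.05 with higher values, beside 17.7% of all genes, and 0 did without STING agonist 4 or without controls 2 and 4. The groups overlapped in Dpp4 and Itgal, and did not in Icam1.

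Upstream of the ligands, 28 of 30 listed genes for interferons, their receptors and the factors that carry interferon and NF-κB signals were on the panel, and 8 had an unadjusted p under 0.05, all with higher values. Their median log2 fold change was 0.24, about that of all genes, of which 17.7% had an unadjusted p under 0.05 with higher values. Irf1, a transcription factor that IFN-γ induces, was at 1.01 (SE 0.21), with an adjusted p of 0.171 (edgeR) and no overlap between the groups. Ifng itself had 6.06 ± 2.48 (SD, n = 3) normalized counts in controls and 12.7 ± 5.51 (SD, n = 4) in treated tumors, and its log2 fold change, 1.02 (SE 0.49), came with overlapping groups and an adjusted p of 0.299 (edgeR). Its counts were above background in 1 of 4 controls and 3 of 4 treated tumors. Il27, a cytokine of the IL-12 family and 1 of the 8 genes, was above background in 0 of 8 tumors, so no fold change is read from it, and Tnf did not pass at 0.72 (SE 0.46). The count of 8 genes was 3 under TMM normalization, 3 without controls 2 and 4, and 3 without STING agonist 1.

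Of 22 genes on the panel that IFN-γ induces, 17 had an unadjusted p under 0.05, all with higher values, beside 17.7% of all genes. The median log2 fold change of the 22 genes was 0.93. The MHC class II genes H2-Ab1 and H2-Eb1 and the invariant chain gene Cd74 had the lowest p, and at 2.51 (SE 0.57), 2.25 (SE 0.47) and 2.48 (SE 0.57) they were near Cxcl9. H2-D1, the most abundant gene of this list, was at 0.052 (SE 0.15). Of 20 antiviral genes that type I IFN induces, 7 had an unadjusted p under 0.05, all with higher values, and the median was 0.43. Zbp1, Ifi44 and Ifit3 had the lowest p of these, at 1.0 (SE 0.24), 0.69 (SE 0.23) and 0.56 (SE 0.19). The genes named were picked by p, and the medians of both lists lay nearer to Cxcl10 (0.86) than to Cxcl9 (2.25). Under TMM normalization the 2 counts were 11 and 1, beside 87 of all 750 genes. The share of the type I IFN list was then below that of all genes. The count of 17 was 10 without STING agonist 1 and 9 without STING agonist 4, and the count of 7 was 3 without STING agonist 1. The difference between the lists was not tested.

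Activated T cells and NK cells are among the cells that carry CXCR3. Of 17 T cell genes, 5 had an unadjusted p under 0.05, all with higher values, beside 17.7% of all genes. The median log2 fold change of the 17 genes was 0.63, and 12 were under a mean count of 20. Cd3g, Cd8a and Cd3e, with the lowest p of the list, stood at 1.51 (SE 0.47), 1.26 (SE 0.48) and 1.18 (SE 0.46). Cd8a was above background in 3 of 4 controls and Cd3e in 2 of 4. Cd3d, which also entered the ratio of Cxcr3, did not pass, at 0.36 (SE 0.26). Cxcr3 stood at 0.30 and Cd4, above background in 3 of 8 tumors, at -0.077 (SE 0.64). In 14 of the 17 genes the log2 fold change was above 0. The 17 genes summed to 456, 325, 511 and 326 normalized counts in controls 1 to 4, and to 792, 411, 529 and 773 in the treated tumors, with Il2rb the most abundant. STING agonist 2 had the highest Cxcl10 and Cxcl11 of all tumors and the lowest T cell sum of the treated tumors. The count of 5 was 1 without STING agonist 1 and 1 without STING agonist 4, and 3 under TMM normalization. Of 12 NK cell and cytotoxicity genes, 2 had an unadjusted p under 0.05, a share close to the 17.7% of all genes. They were Klrc1 at 1.06 (SE 0.37) and Klrk1 at 1.16 (SE 0.41). The count was 0 without controls 2 and 4 or without STING agonist 1, and 4 without STING agonist 2. Klrd1 and Ncr1 did not pass, at 0.57 (SE 0.29) and 0.099 (SE 0.32), and Ncr1 was at -0.12 under TMM normalization.

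Macrophages, monocytes and dendritic cells are known sources of Cxcl9 and Cxcl10. Of 12 genes listed for them and on the panel, among them Ptprc, which all leukocytes carry, 4 had an unadjusted p under 0.05. All 4 had higher values, Ptprc 1 of them, beside 17.7% of all genes. The median log2 fold change of the 12 genes was 0.47. Itgax, which encodes CD11c, was above background in 0 of 4 controls and 3 of 4 treated tumors, so the size of its fold change (2.02, and 3.84 with background subtracted) is uncertain. Emr1, which encodes the macrophage antigen F4/80, had 1.29 (SE 0.43). The 12 genes, of which Cd68 was the most abundant, summed to 1337, 894, 1682 and 851 normalized counts in controls 1 to 4, and to 2516, 1566, 1699 and 2391 in the treated tumors. Control 3 had the highest sum of the controls, and it also had their highest Cxcl9, Cxcl10 and Cxcl11. Among the treated tumors STING agonist 2 had the lowest sum, below control 3, and the highest Cxcl10 and Cxcl11. The part of these cells in the ligand differences was not tested.

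Of the other cell types listed, 0 of 8 B cell genes had an unadjusted p under 0.05 (Cd22 and Cd79b at 0.48 and 0.34, and Cr2 above background in 0 of 8 tumors), and 0 of 7 neutrophil genes (Csf3r, Cxcr2 and S100a8 at 0.82, 0.55 and 0.15). Among 11 endothelial and stromal genes, Kdr, a VEGF receptor, at 1.05 (SE 0.31) and Col1a1 at 0.73 (SE 0.31) were higher, and Col3a1 at -0.42 (SE 0.16) was lower. The 2 higher genes of 11 were a share close to the 17.7% of all genes, beside 1.33% lower, and the groups overlapped in Col1a1. The count of 2 higher genes was 1 under TMM normalization, without control 1, without STING agonist 1 and without STING agonist 4. It was 3 without controls 2 and 4. Cdh1 and Epcam did not pass, at -0.70 (SE 0.36) and -0.39 (SE 0.55). Of 9 hepatocyte genes only Ambp, the most abundant, had an unadjusted p under 0.05, at 4.88 (SE 1.95), while Hamp and C8a were at 3.50 (SE 1.55) and 2.95 (SE 1.48), and all 3 were above background in 0 of 4 controls. The count was 0 without STING agonist 4 or without control 1, 2 without STING agonist 1 and 3 without STING agonist 3.

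**Figure D5:**
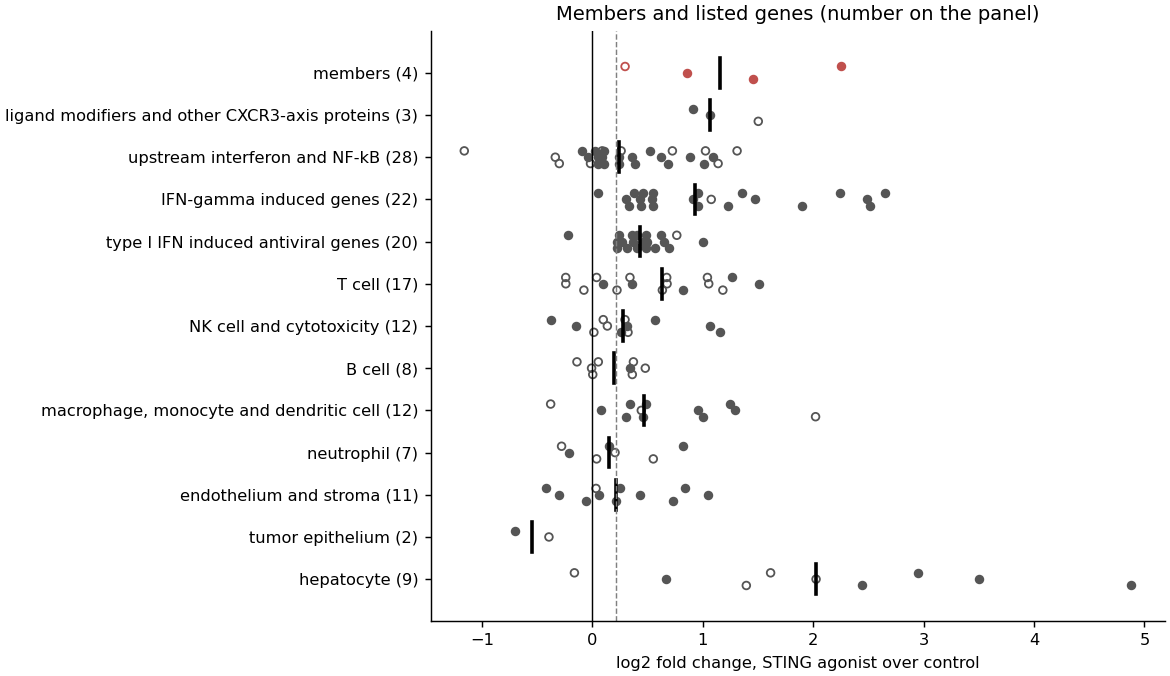
Log2 fold changes (edgeR), STING agonist over control, of the members (red) and of the genes of 12 lists (gray), 1 point per gene, with open circles for genes with a mean count under 20, black bars at list medians and a dashed line at the median of all 750 genes (0.21). The 22 IFN-γ induced genes have a median of 0.93, and the 20 type I IFN induced genes of 0.43.

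Over the 7 samples, the ligand genes followed each other closely on the log2(normalized count + 1) scale, with Pearson's r of 0.973 for Cxcl9 and Cxcl10, 0.946 for Cxcl9 and Cxcl11, and 0.975 for Cxcl10 and Cxcl11. Spearman's rho was 0.964, 0.964 and 1 in the same order. These values are a description, since the 7 points include the difference between the groups and share the housekeeping scaling. With Cxcr3 the r of the 3 ligand genes was 0.449, 0.436 and 0.331, and rho was 0, 0.0357 and 0.0357. Of 518 other genes with a mean count of at least 20, those most like Cxcl9 were H2-Ab1 (r = 0.991), H2-Aa (0.988), Gbp5 (0.988), Eng (0.986) and Cd74 (0.985). For Cxcl10 they were Tgfbr1 (0.986), Eng (0.978), Cxcl11 (0.975), Cxcl9 (0.973) and Gbp5 (0.969). For Cxcl11 they were Runx1 (0.990), Cxcl10 (0.975), Psmd7 (0.968), A2m (0.966) and Gbp5 (0.954). Gbp5, an interferon-induced GTPase, was thus among the 5 genes nearest to each ligand gene, and the log2 fold changes of Eng and Tgfbr1 were small, at 0.45 (SE 0.19) and 0.44 (SE 0.19). For Cxcr3, out of 519 genes, they were Ifnar1 (0.863), Tnfrsf11a (0.851), Csf3r (0.835), Osm (0.807) and C5ar1 (0.806), none with an unadjusted p under 0.05.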

How the data were processed

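Each tumor's RNA, extracted with TRIzol, was measured with the mouse PanCancer Immune Profiling panel on the nCounter system. The authors deposited the counts of 784 probes per tumor without scaling or background subtraction. They normalized to housekeeping genes afterwards with nSolver and R, with versions not given in the sources used here. Each sample was scaled here by the geometric mean of its 20 housekeeping genes. This assumes that these genes do not respond to treatment.

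Groups and replicate numbers came from the sample labels, which do not state that each tumor is from a separate animal, so p-values measure the spread between these samples. The rounded mean of controls 2 and 4 entered as 1 sample. The 750 genes were compared without a filter by edgeR 4.0.16 (R 4.3.3, quasi-likelihood test, Benjamini-Hochberg adjustment), which was tested on simulated data. Ratios and single genes used two-sided exact permutation tests on log2(normalized count + 1), in Python 3.11.15 (scipy 1.17.1). DESeq2 1.42.0 and limma 3.58.1 served as alternatives, beside other scalings, a count filter, background subtraction, pseudocounts of 0.1 and 20, other denominators of the ratios to Ptprc and the CD3 genes, left-out samples and the replicate number as a block.

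Named genes were the 4 members, the 3 genes with the lowest p of each list, 11 fixed genes, the 5 genes most correlated with each member, and the 5 ligand and 3 receptor genes with the largest change at a mean count of at least 20, and 2 of these genes are not shown. The members and lists were chosen with earlier results of these data known. The data are described by the study as pooled from 2 experiments that the labels do not name, so experiments were not compared.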

Additional observations from a re-analysis of the deposited data

Results flagged for a closer look

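Among the values of the named genes and the ratios, 67 were examined for a single treated tumor far from the other 3, and 3 were found. Chance gives about 1 in 20, or 3.35 of 67, for values that do not depend on each other, and genes of the same tumor do. All 3 were hepatocyte genes, and in each the tumor was STING agonist 4. The gap to the nearest tumor was 0.988 of the whole range for Ambp, with 762 normalized counts against 2.44 to 11.7 in the other treated tumors. It was 0.982 for Hamp (250 against 3.67 to 8.18) and 0.987 for C8a (110 against 2.04 to 3.50). No member and no ratio was found in this way. The same tumor had the highest Cxcl9, and the log2 fold change of Cxcl9 was 2.02 without it.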

How the results depend on the processing

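In 20 distinct alternatives the log2 fold changes of Cxcl9, Cxcl10 and Cxcl11 kept their direction, at 1.90 to 2.60, 0.64 to 1.06 and 1.20 to 1.66, with each sample left out in turn at 1.90 to 2.60, 0.64 to 1.06 and 1.20 to 1.66. Their adjusted p was under 0.05 with the Wald test of DESeq2 (log2 fold changes 2.25, 0.86 and 1.46), and for Cxcl9 without STING agonist 3 (2.45). Cxcr3 was at -0.075 with controls 2 and 4 left out, and at -0.18 to 0.61 with each sample left out, and the filter at a mean count of 20 removed it.

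Genes with an adjusted p under 0.05 numbered 52 with DESeq2 and 0 to 7 with each sample left out (1 without control 3, 7 without STING agonist 3). At an unadjusted p under 0.05, 87 genes were higher and 40 lower with TMM, 81 and 45 using DESeq2's size factors, 68 and 31 using the total count, 87 higher with the methods' per-gene test (16 lower with all 8 tumors, added after seeing the data), 17 lower with controls 2 and 4 left out, and 77 to 153 higher and 7 to 21 lower with each sample left out. The cause of these shifts was not tested.

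The ratio of Cxcl11 to Ptprc differed by -0.22 to 0.26 with each sample left out, and the other 6 ratios kept their direction. With a pseudocount of 20, Cxcl11 to Cxcl10 differed by 0.22. With the mean of Ptprc, Itgam and Csf1r in place of Ptprc, the ratios of Cxcl9, Cxcl10 and Cxcl11 differed by 1.26, -0.18 and 0.34, and Cxcr3 against the T cell list differed by -0.16. In exact permutation tests with a sample left out, for ratios too, p cannot go below 0.0667, so a call there could not pass. So tested, the difference in mean log2 normalized count was 1.82 to 2.67 for Cxcl9, 0.63 to 1.07 for Cxcl10, 1.11 to 1.67 for Cxcl11 and -0.19 to 0.70 for Cxcr3. With no sample left out and all 8 tumors separate, it was 1.56 for Cxcl11 (exact permutation test, p = 0.0286).

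The replicate block gave log2 fold changes of 2.58, 1.01, 1.56 and 0.73 for Cxcl9, Cxcl10, Cxcl11 and Cxcr3, with 159 genes higher, 13 lower and 0 past the adjusted threshold (edgeR), against 186, 15 and 0 without it on the same 8 tumors. Same-numbered tumors did not deviate together (correlations -0.28 to -0.058 over 519 genes), and none of the 4 controls correlated best with its own number. With 4 tumors in each group, and controls 2 and 4 near-identical, this cannot exclude a pairing. The main comparison treated the samples as unpaired.

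Of 56 other named genes, 9 had values in the other direction. With TMM, DESeq2 size factors and the total count, S100a8 was at -0.16, -0.17 and -0.040, Ncr1 at -0.12, -0.14 and -0.11, Ifnar1 at -0.14, -0.15 and -0.096 and Osm at -0.15, -0.17 and -0.15, and with the first 2 Psmd7 at -0.022 and -0.035. Osm was at -0.097 with controls 2 and 4 left out. Cd4 was at 0.14 with background subtracted, 0.21 with all 8 tumors separate, 0.25 with the replicate block and 0.31 by the methods' per-gene test with all 8 tumors. With each sample left out, the ranges were -0.28 to 0.62 for Cr2, -0.043 to 0.49 for S100a8, -0.058 to 3.89 for Hamp, -0.52 to 3.47 for C8a, -0.41 to 0.45 for Cd4, -0.041 to 0.22 for Ncr1 and -0.21 to 0.41 for Osm. DESeq2 gave 19 of these genes an adjusted p under 0.05.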
